A study of Mus musculus with 29 samples.

Results

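Mast cell genes, together with the receptor gene Kit and its ligand gene Kitl, were followed in RNA-seq libraries of the peritoneum from mice with disseminated gastric cancer. The 9 genes were Cpa3, Mcpt4, Cma1, Tpsb2, Fcer1a, Ms4a2, Hdc, Kit and Kitl, chosen by symbol among the 24421 genes of the count table, of which 20929 had at least 1 count. All 9 were in the table and passed the filter on low counts in every comparison. Each of the 29 libraries came from a separate mouse, a female C57BL/6J animal of 5 to 6 weeks that received YTN16 mouse gastric cancer cells intraperitoneally on day 0. At day 21 there were 5 untreated mice, which received PBS, and 5 dual ICI mice, which received anti-PD1 and anti-CTLA4 antibodies. At day 35 there were 5 untreated, 5 anti-PD1 and 4 anti-CTLA4 mice, and 5 dual ICI mice that were split by outcome into 2 mice with remaining disease, called dual ICI-uncured, and 3 without, called dual ICI-cured. The labels give treatment, day and mouse number but no outcome, so the split rests on matching these mouse numbers with the numbered mice of the study, and values for all 5 are given as well. YTN16 is 1 transplanted cell line, and the RNA came from stripped peritoneum whether or not it carried nodules, although the labels call every sample tumor tissue.

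Mast cells are tissue-resident immune cells that store histamine, heparin and proteases in granules. KIT ligand from neighboring cells binds the receptor KIT on the mast cell and keeps it alive, and antigen bound to IgE on the high-affinity receptor FcεRI triggers release of the granules. The peritoneum is a classical source of connective tissue mast cells, which carry carboxypeptidase A3 (Cpa3), the chymases Mcpt4 and Cma1 and the tryptase Tpsb2. Mucosal mast cells, typical of the epithelium of the gut, carry Mcpt1 and Mcpt2. Of the 9 genes, several are not restricted to mast cells. Basophils also carry the FcεRI chains Fcer1a and Ms4a2, Hdc is also used by other myeloid cells and endocrine cells of the stomach, and Kit also marks interstitial cells of Cajal, melanocytes and blood progenitors.

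The library totals lay between 25989217 and 31219650 counts. Levels below are CPM, the usual depth-scaled counts, with library totals scaled by TMM over all 29 libraries. The label of tumor tissue was compared with a list of 26 gastric epithelial genes, whose summed level was 143 to 241 CPM in the dual ICI-cured libraries and 4882 and 5733 CPM in the dual ICI-uncured libraries. A pair of other day 35 libraries stood apart from their groups. Anti-PD1 library 5 had 183 CPM of the epithelial list against 3919 to 5016 in the other anti-PD1 libraries, and untreated library 2 had 1648 CPM against 4025 to 5198 in the other untreated libraries. The summed level of 26 skeletal muscle genes ran the other way, at 364806 to 406779 CPM in the cured libraries, 378334 in anti-PD1 library 5 and 316253 in untreated library 2. The paper describes a cured animal in the anti-PD1 group, which is not tied to a library here because the labels give no outcome, and results that rest on these libraries are given with and without them. In bulk tissue, fewer cells of a type and less RNA per cell cannot be told apart.

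Mast cell genes are classically bound by GATA factors, and the promoter windows that hold GATA letters are shown. Of the genes shown, Ms4a2 was called in untreated, anti-CTLA4 and uncured mice against cured mice, but not in anti-PD1 mice with all libraries kept. Cpa3, Mcpt4 and Fcer1a were not called in any comparison of all libraries. RefSeq, on GRCm38.p6, held the 250 bases before the start of 8 of the 9 genes, and Tpsb2 was not among them. The letters AGATAA or TGATAA were searched on both strands and are in capitals below, where TTATCT and TTATCA are the same letters on the other strand. They were found in 4 of the 8 windows, against 17.0% of the 27025 gene windows of the same length. The 4 windows, all from genes on the minus strand and written in the direction of transcription, were:
Cpa3, chr3:20242182-20242431: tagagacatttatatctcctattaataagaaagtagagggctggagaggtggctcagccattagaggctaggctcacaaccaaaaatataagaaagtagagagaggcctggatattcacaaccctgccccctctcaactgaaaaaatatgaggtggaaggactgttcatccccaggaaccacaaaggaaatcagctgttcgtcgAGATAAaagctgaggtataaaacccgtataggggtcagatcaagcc
Mcpt4, chr14:56062311-56062560: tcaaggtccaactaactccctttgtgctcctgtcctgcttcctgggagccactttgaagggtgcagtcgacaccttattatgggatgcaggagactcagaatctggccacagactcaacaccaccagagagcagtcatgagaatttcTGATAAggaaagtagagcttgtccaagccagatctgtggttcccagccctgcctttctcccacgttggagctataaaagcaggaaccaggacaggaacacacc
Fcer1a, chr1:173227230-173227479: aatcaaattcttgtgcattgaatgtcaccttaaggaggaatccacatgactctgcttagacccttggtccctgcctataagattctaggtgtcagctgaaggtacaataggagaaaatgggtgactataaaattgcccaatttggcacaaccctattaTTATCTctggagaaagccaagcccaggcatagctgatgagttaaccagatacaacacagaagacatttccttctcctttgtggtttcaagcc
Ms4a2, chr19:11623720-11623969: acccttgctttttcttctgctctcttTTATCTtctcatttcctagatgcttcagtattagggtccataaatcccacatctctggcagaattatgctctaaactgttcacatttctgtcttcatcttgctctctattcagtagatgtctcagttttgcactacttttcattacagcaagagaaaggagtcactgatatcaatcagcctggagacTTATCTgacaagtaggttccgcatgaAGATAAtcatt
The Ms4a2 window held 3 matches and the others 1 each, and the Cpa3 match began 46 bases before the start. The windows of Cma1, Kit, Kitl and Hdc held none. Matching letters do not show binding, and Gata1 and Gata2 levels are given with the other mast cell genes.

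Per kilobase of exon, the 9 genes fell into a high and a low set. Mean levels over the 29 libraries were 21.4 CPM per kilobase for Mcpt4, 17.6 for Cma1, 16.1 for Tpsb2, 10.7 for Kitl and 10.6 for Cpa3. The low set was Kit at 2.30, Fcer1a at 1.59, Ms4a2 at 1.36 and Hdc at 0.99 CPM per kilobase. Proteases and the ligand gene thus made up the high set, and the receptor genes and Hdc the low set. The spread between libraries was ordered differently. The highest library was 23.8-fold above the lowest for Ms4a2 and 10.4-fold for Fcer1a, but 2.58-fold for Kitl and 3.44- to 4.68-fold for the 4 proteases. When the 7 groups were ordered by mean, neighboring groups had overlapping ranges in 53 of 54 cases over the 9 genes. The exception was Hdc in cured mice and untreated mice of day 21. The share of all genes whose group ranges do not overlap is not given here. Gaps between groups are thus not read as particular to the 9 genes.

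**Figure D1:**
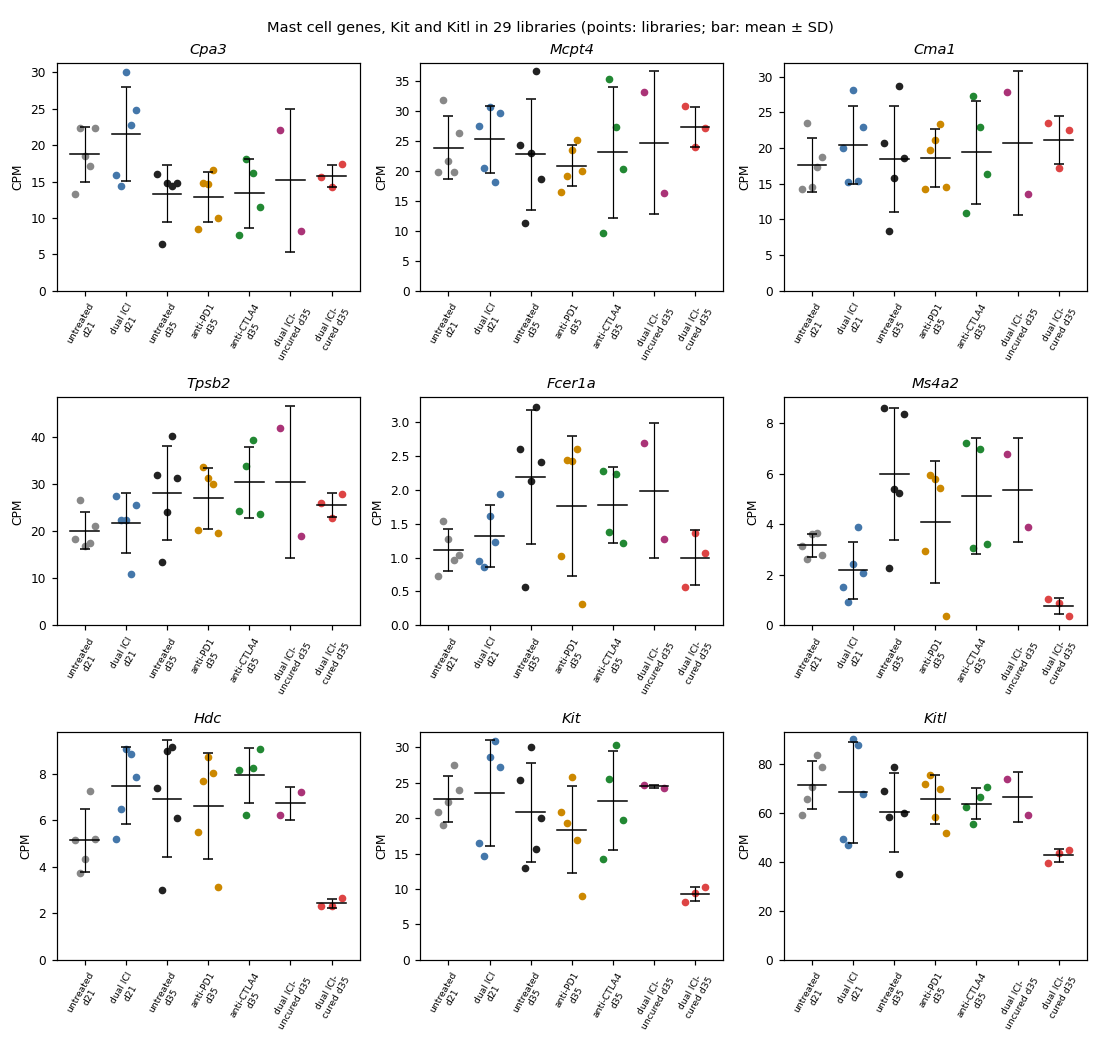
Level of each of the 9 genes, in CPM after TMM scaling, in every library (points) of the 7 groups, with the group mean and SD (bars). The dual ICI-cured group has the lowest mean for Ms4a2, Hdc and Kit, at 0.763, 2.42 and 9.27 CPM, with anti-PD1 library 5 equally low for Ms4a2 and Kit, and lies inside the range of the other groups for the 4 proteases.

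None of the 4 granule proteases passed the test between untreated and dual ICI-cured mice. Cpa3 encodes a carboxypeptidase that mast cells store bound to heparin. Its level was 15.6, 14.3 and 17.4 CPM in the 3 dual ICI-cured libraries and 22.1 and 8.21 CPM in the 2 dual ICI-uncured libraries. It was 16.1, 6.42, 14.8, 14.4 and 14.8 CPM in the untreated libraries at day 35. The cured libraries thus lay inside the span of the uncured ones, and untreated library 2 was far below its group. The log2 fold change of untreated over cured mice was -0.27 ± 0.26 (SE; 95% interval -0.85 to 0.31), with an adjusted p of 0.418 (edgeR's quasi-likelihood test with Benjamini-Hochberg adjustment, used for every adjusted p below).

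Mcpt4 and Cma1 encode the chymases of connective tissue mast cells. Mcpt4 had 30.8, 24.0 and 27.1 CPM in the cured libraries and 33.2 and 16.3 CPM in the uncured libraries, so that the cured values again lay between the uncured ones. Its untreated libraries at day 35 spread from 11.3 to 36.6 CPM, with a mean of 22.8 ± 9.26 CPM (SD, n = 5). Cma1 had 23.5, 17.2 and 22.5 CPM in the cured libraries and 27.8 and 13.6 CPM in the uncured ones. The log2 fold change of untreated over cured mice was -0.28 ± 0.30 for Mcpt4 (95% interval -0.95 to 0.38) and -0.22 ± 0.31 for Cma1 (-0.92 to 0.48). Neither passed the test.

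Tpsb2 encodes a tryptase. It had 26.1, 22.8 and 27.8 CPM in the cured libraries, 41.9 and 19.1 CPM in the uncured ones, and 28.2 ± 10.0 CPM (SD, n = 5) in the untreated ones at day 35. The log2 fold change of untreated over cured mice was 0.11 ± 0.29 (95% interval -0.53 to 0.75). Tpsb2 shares much of its sequence with its neighbor Tpsab1, so reads of the pair could have been split in counting and its level is uncertain. The summed level of the 4 proteases was 78.4 to 96.0 CPM in the cured libraries, inside the 39.5 to 120 CPM of the untreated libraries at day 35. The upper 95% limits of the 4 proteases, 0.31 to 0.75, lay below the lower limit of 1.82 for Ms4a2 in the same comparison, described next. This held for Ms4a2 alone. The lower limits of Hdc (0.71), Kit (0.53), Kitl (-0.04) and Fcer1a (-0.06) lay below the upper limit of Tpsb2. Against anti-PD1, anti-CTLA4 and uncured mice, the log2 differences of the 4 proteases from cured mice were -0.39 to 0.24 and none passed the test. With 2 uncured libraries that lie on either side of the cured ones, the uncured comparison turned on each of them. Without uncured library 1, the log2 values were -0.96 for Cpa3, -0.76 for Mcpt4, -0.65 for Cma1 and -0.44 for Tpsb2. Without uncured library 5, the log2 value of Tpsb2 was 0.67. Either fit leaves a single uncured library, so its calls are not read.

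Ms4a2 was higher in untreated, anti-CTLA4 and uncured mice than in cured mice. It encodes the β chain, which amplifies the signal of the receptor in mast cells and basophils. Its counts were 20, 18 and 8 in the cured libraries, or 1.02, 0.877 and 0.387 CPM. In the uncured libraries it had 6.80 and 3.9001 CPM, and in the untreated libraries at day 35 it had 8.61, 2.28, 5.39, 5.25 and 8.37 CPM. The cured libraries lay below every untreated and uncured library, and the share of all genes for which they did so is not given. Untreated mice were 7.69-fold above cured mice (log2 2.94 ± 0.50, adjusted p = 0.00176). The anti-CTLA4 libraries had 7.24, 3.07, 6.97 and 3.22 CPM and were 6.65-fold above cured mice (log2 2.73 ± 0.48, adjusted p = 0.00166). Uncured mice were 6.85-fold above cured mice (log2 2.78 ± 0.40, adjusted p = 0.000302). These comparisons share the same 3 cured libraries and are not independent of each other.

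For anti-PD1 mice the Ms4a2 call depended on library 5 and on the method. The values were 2.96, 5.96, 5.79, 5.43 and 0.361 CPM, and library 5, at 0.361 CPM, was below all 3 cured libraries. With it, the log2 fold change over cured mice was 2.42 ± 0.82 with an adjusted p of 0.0644. Without it, the log2 fold change was 2.71 ± 0.38 with an adjusted p of 0.000220. With library 5 kept, DESeq2 gave an adjusted p of 0.00866 and an edgeR fit of all 29 libraries gave 0.00506. At day 21 Ms4a2 had 2.63 to 3.67 CPM in untreated and 0.932 to 3.904 CPM in dual ICI libraries, and dual ICI library 2, at 0.932 CPM, lay inside the cured range.

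Fcer1a encodes the α chain, which binds IgE. It was rarer, with counts of 11, 28 and 22 in the cured libraries, or 0.563, 1.36 and 1.07 CPM. The untreated libraries at day 35 had 2.60, 0.569, 2.14, 3.22 and 2.41 CPM, and only library 2 fell within the cured range. The log2 fold change of untreated over cured mice was 1.10 ± 0.52 (95% interval -0.06 to 2.26) with an adjusted p of 0.108. Without untreated library 2 it was 1.33 ± 0.33 with an adjusted p of 0.00746. Fcer1a missed the threshold in the other comparisons with cured mice as well, and passed it in anti-PD1 mice without library 5 (log2 1.08, adjusted p = 0.0412). Without uncured library 5, which leaves a single uncured library, the log2 value of uncured over cured mice was 1.38. The ratio of Ms4a2 to Fcer1a counts was 0.364 to 1.82 in the cured libraries and 2.52 and 3.04 in the uncured ones, and 1.63 to 4.00 in the untreated ones of day 35.

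Hdc encodes histidine decarboxylase, which makes histamine. It had 2.30, 2.29 and 2.66 CPM in the cured libraries, which were the 3 lowest of all 29. It had 6.23 and 7.23 CPM in the uncured libraries and 7.38, 3.01, 8.97, 9.15 and 6.11 CPM in the untreated libraries at day 35. The cured libraries did not overlap with any other group. This gap is not read as particular to Hdc, because the share of all genes with such gaps is not given. Untreated mice were 2.81-fold above cured mice (log2 1.49 ± 0.35, adjusted p = 0.00819). The fold was 2.73 for anti-PD1 mice (adjusted p = 0.0403), 3.25 for anti-CTLA4 mice (adjusted p = 0.000236) and 2.73 for uncured mice (adjusted p = 0.000361). In anti-PD1 library 5, Hdc was 3.15 CPM, the lowest of that group. The anti-PD1 calls of Hdc and Kitl were lost when any single library other than anti-PD1 library 5 was left out, with adjusted p-values of 0.0853 to 0.145.

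Kit encodes the receptor tyrosine kinase of mast cells. It had 8.19, 9.35 and 10.3 CPM in the cured libraries and 24.6 and 24.3 CPM in the uncured ones. The untreated libraries at day 35 had 25.4, 13.0, 30.0, 15.7 and 19.997 CPM. Outside the cured group, only anti-PD1 library 5, at 8.98 CPM, was below 13.0 CPM. Kit was 2.21-fold higher in untreated than in cured mice (log2 1.14 ± 0.27, adjusted p = 0.00876), 2.40-fold in anti-CTLA4 mice (adjusted p = 0.00329) and 2.59-fold in uncured mice (log2 1.37 ± 0.14, adjusted p = 3.99e-05). For anti-PD1 mice the log2 fold change was 0.98 ± 0.31 with an adjusted p of 0.0559, and 1.15 ± 0.16 with an adjusted p of 0.000221 without library 5. With library 5 kept, the adjusted p of Kit was 0.0176 by DESeq2 and 0.0168 in an edgeR fit of all 29 libraries. Kit counts per Cpa3 count were 0.525 to 0.653 in the cured libraries and at least 0.848 in every other library. How often ratios of other genes show such a gap is not given.

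Kitl encodes the KIT ligand, which fibroblasts, endothelium and epithelium make. It had 39.6, 43.5 and 44.6 CPM in the cured libraries and 73.7 and 59.1 CPM in the uncured ones. Uncured mice were 1.53-fold above cured mice (log2 0.61 ± 0.12, adjusted p = 0.00152). The fold was 1.48 for anti-CTLA4 mice (adjusted p = 0.00243) and 1.53 for anti-PD1 mice (adjusted p = 0.0403). Untreated mice at day 35 had 68.7, 58.1, 78.6, 35.003 and 59.9 CPM and did not pass the test (log2 0.48 ± 0.23, adjusted p = 0.119). Untreated library 4, at 35.003 CPM, was the lowest of all 29 libraries for Kitl. Without it the log2 fold change was 0.57 ± 0.13 with an adjusted p of 0.0124.

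A measure tied to gene length moved with Kitl, and whether it is technical was not tested. The difference in median log2 CPM between the longest and the shortest genes (upper and lower quartile of exon length) was 0.41 in untreated library 4 and 0.97 to 1.26 in the other untreated libraries at day 35. Over the 29 libraries, after subtraction of group means, this difference correlated with Kitl (Pearson r = 0.83, permutation p = 0.00015; Spearman rho = 0.72, permutation p = 0.00025). Adjusted over the 9 genes, the p-values were 0.00135 and 0.00225, and r was 0.68 without the 2 libraries farthest from the median. For the other 8 genes r was -0.34 to 0.44, none with an adjusted p under 0.05. The median of this length measure was 1.12 in the cured and 1.18 in the uncured libraries. In untreated libraries it was 1.28 to 1.40 at day 21 and 0.41 to 1.26 at day 35. Its part in the Kitl differences was not tested.

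Read as counts of genes, the comparisons with the cured mice were not particular to the 9 genes, because a large share of all genes differed. Of the 9 genes, 3 were called higher in untreated than in cured mice and 0 lower, where 44.7% of the 15816 genes tested were called in either direction, 26.7% higher and 18.0% lower. In anti-PD1 mice 2 of 9 were called, all higher, against 18.8% of genes in either direction, 16.3% higher and 2.53% lower. In anti-CTLA4 mice 4 of 9 were called higher, against 62.5% in either direction, 33.6% higher and 28.8% lower. In uncured mice 4 of 9 were called higher, against 70.0% in either direction, 36.9% higher and 33.1% lower. The called share of the 9 genes was thus no higher than that of all genes in 3 of the 4 comparisons, those with untreated, anti-CTLA4 and uncured mice. The median log2 fold change of the 9 genes over cured mice was 0.48 for untreated and 0.61 for uncured mice, against 0.05 over all genes tested in both cases.

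The 9 genes were next compared between treated and untreated mice, and none was called. At day 35 the dual ICI mice in this paragraph were those not cured, so treatment and outcome cannot be told apart. The cured mice were treated too, and are compared with untreated mice above. At day 21, 0 of the 9 genes were called in dual ICI against untreated mice, where 0.574% of genes were called by edgeR. With an unadjusted p under 0.05 there was 1 of the 9, against 10.7% of all genes. This was Hdc, with 7.49 ± 1.64 CPM under dual ICI and 5.13 ± 1.34 CPM in untreated mice (SD, n = 5 each), a log2 fold change of 0.56 ± 0.22 with an adjusted p of 0.364. The Hdc values of both groups overlapped, at 5.18 to 9.07 and 3.72 to 7.27 CPM. At day 35, 0 of the 9 genes were called in anti-PD1, anti-CTLA4 or uncured mice against untreated mice, and none had an unadjusted p under 0.05. In each of these comparisons 0.0% of all genes were called by edgeR, and 1.31%, 0.811% and 4.87% had an unadjusted p under 0.05. DESeq2 called 0 of the 9 genes in each of these 4 comparisons as well. The 95% intervals of the log2 fold changes reached from -1.81 to 1.13 over the 9 genes and these 3 day 35 comparisons, the widest being those of Ms4a2 and Fcer1a.

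With all 5 dual ICI mice of day 35 taken as the labels group them, 0 of the 9 genes were called against untreated mice, as were 0.0% of all genes by edgeR. None of the 9 and 6.87% of all genes had an unadjusted p under 0.05. Ms4a2 had the lowest log2 fold change, -1.20 ± 0.70, with an adjusted p of 0.634. The 5 libraries held 3 values of 0.387 to 1.02 CPM and 2 values of 3.9001 and 6.80 CPM. The test of whether the dual ICI effect in uncured mice at day 35 differed from that at day 21 called 0 of the 9 genes and 0.0% of all genes, and none of the 9, against 6.35% of all genes, had an unadjusted p under 0.05.

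**Figure D2:**
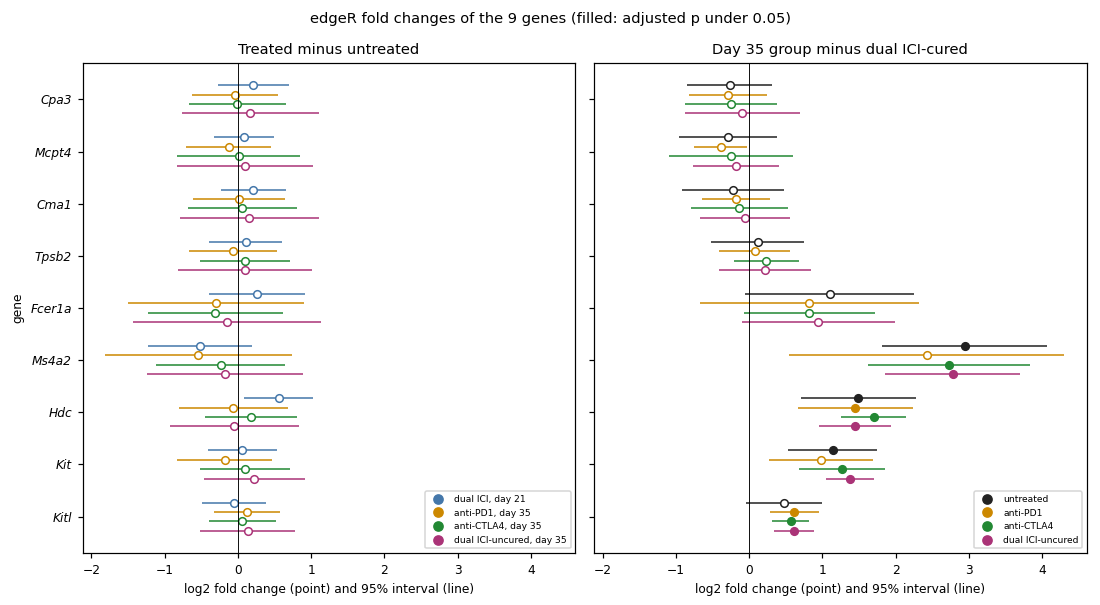
Log2 fold changes (points) with 95% intervals (lines) from edgeR for the 9 genes, in treated against untreated mice (left) and in each day 35 group against dual ICI-cured mice (right). Filled points passed an adjusted p of 0.05; all points on the left are open, and on the right the filled points are those of Ms4a2, Hdc, Kit and Kitl, up to 2.94 for Ms4a2 in untreated mice.

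Between day 21 and day 35, untreated mice had higher means of both FcεRI chains at day 35, short of the threshold. 0 of the 9 genes were called, where 10.8% of genes were called in either direction, and 2 of the 9, against 30.1% of all genes, had an unadjusted p under 0.05. Ms4a2 had means of 3.17 ± 0.47 CPM at day 21 and 5.98 ± 2.61 CPM at day 35 (SD, n = 5 each; log2 0.91 ± 0.30, adjusted p = 0.0720). For Fcer1a the means were 1.11 ± 0.31 and 2.19 ± 0.989 CPM (log2 0.98 ± 0.39, adjusted p = 0.117). Without untreated day 35 library 2, 4 of the 9 genes were called higher at day 35, namely Tpsb2, Fcer1a, Ms4a2 and Hdc, with adjusted p-values of 0.0209, 0.00643, 0.00343 and 0.0452. In that fit 4915 genes were called over the whole table, in place of 1687 with all libraries, so the rise is not particular to the 9 genes. The column headers of the count table carry different blocks of identifier numbers for the 2 days. What these blocks stand for is not stated, and they cannot be told apart from day.

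Within a library, the genes can be set against Cpa3, so that a difference shared by both drops out. Ms4a2 counts per Cpa3 count were 0.0223 to 0.0656 in the cured libraries and 0.307 and 0.475 in the uncured ones. They were 0.354 to 0.564 in the untreated libraries at day 35, including library 2 at 0.354. In anti-PD1 library 5 the ratio was 0.0359, inside the cured range, where the other anti-PD1 libraries reached up to 0.404. Low ratios were not limited to these libraries, since dual ICI libraries of day 21 had 0.0646 to 0.172, the lowest also inside the cured range, and untreated libraries of day 21 had 0.118 to 0.236. Hdc counts per Cpa3 count were 0.148 to 0.160 in the cured libraries, 0.412 to 0.634 in the untreated ones at day 35 and 0.313 in anti-PD1 library 5, and began at 0.166 in untreated libraries of day 21. The ratio of Cma1 to Mcpt4, by contrast, was 0.718 to 0.830 in cured and 0.687 to 1.00 in untreated libraries at day 35. Tpsb2 counts per Cpa3 count differed by day in untreated mice, whose ranges did not overlap. How often ratios of other genes do so is not given. They were 0.915 to 1.38 in untreated mice at day 21 and 1.63 to 2.79 at day 35, with 1.595 to 1.67 in cured libraries and 0.48 to 1.73 under dual ICI at day 21.

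**Figure D3:**
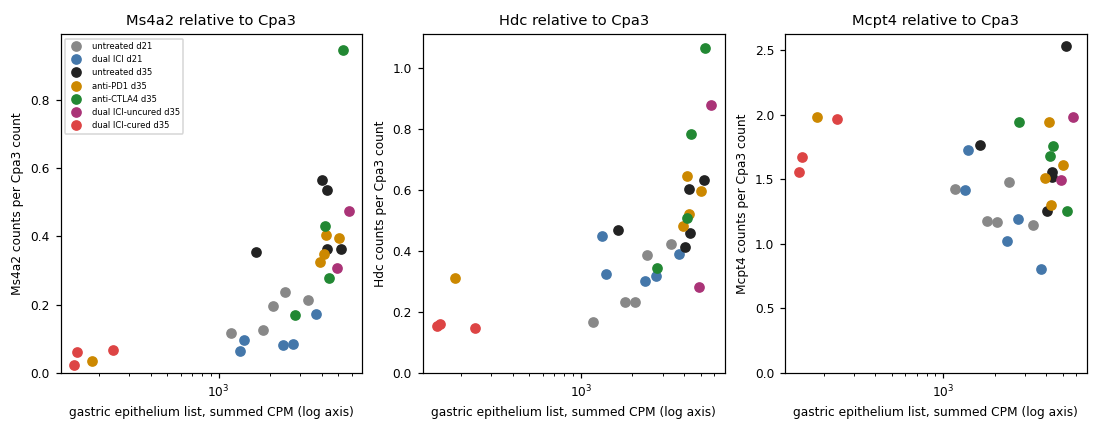
Counts of Ms4a2, Hdc and Mcpt4 per Cpa3 count in each library (vertical axes) against the summed CPM of 26 gastric epithelial genes (horizontal log axes), colored by group. The 3 cured libraries and anti-PD1 library 5 lie at the lower left for Ms4a2, at ratios of 0.0223 to 0.0656, whereas for Mcpt4 they lie among the other libraries.

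Across libraries the genes correlated mainly within 2 sets, the proteases and the receptor genes with Hdc. Correlations were computed for the 36 pairs on log2 CPM after subtraction of group means (n = 29), with p-values from a permutation test within groups and Benjamini-Hochberg adjustment over the pairs, and 17 pairs had an adjusted p under 0.05 (15 by Spearman's rho). The 4 proteases correlated with each other in 6 of 6 pairs, with r of 0.65 to 0.93 and rho of 0.67 to 0.94. The strongest pair was Mcpt4 with Cma1 (r = 0.93, rho = 0.94, permutation p = 1e-05 for both, the smallest that 100000 permutations can give; adjusted p = 0.00018 for both). Both genes lie in the chymase cluster of chromosome 14, Cma1 at chr14:55941451-55944675 and Mcpt4 at chr14:56059629-56062313 (GRCm38, GENCODE vM21). Without the 2 libraries farthest from the median r was 0.91, and without anti-PD1 library 5 and untreated day 35 library 2 it was 0.93.

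Ms4a2, Fcer1a, Hdc and Kit correlated with each other in 6 of 6 pairs by r, 0.55 to 0.78, and in 3 of 6 by rho, 0.37 to 0.64. This set rested on the 2 libraries that stood apart. Without anti-PD1 library 5 and untreated day 35 library 2, r was 0.12 to 0.46 and 0 of the 6 pairs had an adjusted p under 0.05, whereas 5 of the 6 protease pairs still did. The proteases correlated with Kit or Kitl in 1 of 8 pairs, Cpa3 with Kit (r = 0.58, rho = 0.53, permutation p = 0.00264 and 0.00916, adjusted p = 0.0095 and 0.0254, and r = 0.42 without the 2 farthest libraries). Without the 2 libraries that stood apart, 0 of these 8 pairs had an adjusted p under 0.05, with 0.0839 for Cpa3 and Kit. Fcer1a was the link between the sets. Of 12 pairs of a protease with Fcer1a, Ms4a2 or Hdc, 3 had an adjusted p under 0.05, namely Fcer1a with Cpa3 (r = 0.64), Tpsb2 (r = 0.62) and Cma1 (r = 0.58), and 0 did without the 2 libraries that stood apart. The receptor and its ligand, Kit and Kitl, also correlated (r = 0.64, rho = 0.66, permutation p = 0.00296 and 0.00154, adjusted p = 0.00969 and 0.00792, r = 0.61 without the 2 farthest libraries). Without the 2 libraries that stood apart, r was 0.67 with an adjusted permutation p of 0.0313. Kitl also moved with the length measure (r = 0.83), whose part in the correlation of Kit and Kitl was not tested. Correlations of this size were common among all genes. Ranked by r, Kit was 1221st of 14337 genes for Kitl. For Ms4a2, Fcer1a was 1703rd, Hdc 2808th and Kit 3367th.

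**Figure D4:**
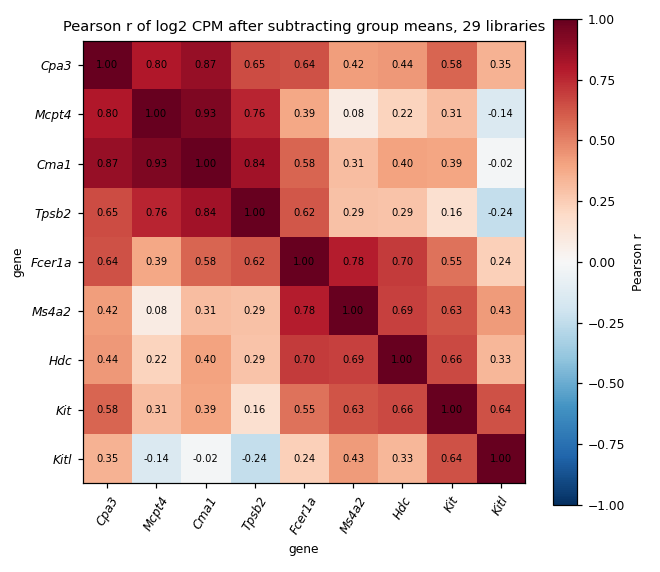
Pearson correlation between each pair of the 9 genes over 29 libraries, on log2 CPM after subtraction of the group means, from -1 (blue) to 1 (red). The proteases form a block with r of 0.65 to 0.93, and Ms4a2, Fcer1a, Hdc and Kit another with r of 0.55 to 0.78 that rests on 2 libraries.

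The levels of other cell types moved with Ms4a2 and Hdc. Within groups, Ms4a2 correlated with the log2 of the summed CPM of the gastric epithelial list (r = 0.88, rho = 0.73, permutation p = 4e-05 and 0.00013). Hdc did so too (r = 0.80, rho = 0.70, permutation p = 2e-05 and 0.00015). Adjusted over 27 relations of the 9 genes with 3 lists, the p-values of r were 0.00045 for both. Without the 2 libraries farthest from the median, r was 0.89 and 0.81. Without anti-PD1 library 5 and untreated day 35 library 2, r was 0.60 for Ms4a2 and 0.71 for Hdc, with adjusted permutation p-values of 0.0198 and 0.0186. For Fcer1a and Kit, r with the epithelial list was 0.67 and 0.65 over all 29 libraries and 0.0097 and 0.34 without these 2, with adjusted permutation p-values of 0.965 and 0.261. For Cpa3 and Mcpt4, r with the epithelial list was 0.24 and 0.015. The neutrophil list gave similar values, with r of 0.88 for Ms4a2 and 0.84 for Hdc, so these lists could not be separated. The skeletal muscle list gave r of -0.79 for Ms4a2, -0.74 for Hdc and -0.57 for Kit. For Mcpt4, r with the muscle list was 0.25, and 0.65 without the 2 libraries that stood apart (adjusted permutation p = 0.0198). The summed level of 9 neutrophil genes was 7.53 to 9.40 CPM in the cured libraries, 9.91 in anti-PD1 library 5 and 109 and 128 in the uncured libraries. The part of these cell types in the levels of Ms4a2, Hdc and Kit was not tested.

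Markers of other cells that carry the same genes were read beside them. Of the basophil list, Mcpt8, the defining protease of basophils, had 0 to 1 counts in the cured libraries and 0 to 24 counts elsewhere, with 4 or fewer counts in all untreated libraries of day 21. Prss34, another basophil protease, had 1.29 CPM in cured and 1.21 CPM in untreated mice at day 35 (log2 -0.12 ± 0.34). Itga2, an integrin gene of this list that epithelium also expresses, was 9.98-fold higher in untreated than in cured mice (adjusted p = 0.00459), and the summed list of 6 genes was 22.4 to 29.6 CPM in cured and 30.0 to 70.3 CPM in untreated libraries at day 35. Of the list for interstitial cells of Cajal, the chloride channel gene Ano1 was 4.40-fold higher in untreated than in cured mice (adjusted p = 0.0022), and Prkcq was lower (log2 -1.28 ± 0.45, adjusted p = 0.0432). Of the melanocyte list, Tyr had 0 counts in every group, while the summed list of 6 genes was 8.57 to 15.8 CPM in cured and 4.61 to 11.7 CPM in untreated libraries at day 35. Sox10, which Schwann cells share with melanocytes, was lower in uncured than in cured mice (log2 -2.14 ± 0.37, adjusted p = 0.000871), and Pmel was 1.93-fold higher (adjusted p = 0.0355). The endocrine gene Chga was 4.72-fold higher in untreated than in cured mice (adjusted p = 0.0181), at a mean of 0.896 CPM.

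Genes of mucosal mast cells were at or near 0 in the cured mice. Mcpt1 had 0 counts in all 3 cured libraries and Mcpt2 had 1, 0 and 0 counts. In the untreated libraries at day 35, Mcpt1 had 130, 24, 149, 59 and 112 counts and Mcpt2 had 184, 34, 153, 135 and 184 counts. With a floor of 3 counts per library, 0.148 CPM, the Mcpt1 mean was at least 19.8-fold higher in untreated and at least 26.1-fold higher in uncured mice than in cured mice. Mcpt2 had 4.38 ± 1.72 CPM in untreated mice (SD, n = 5) and 6.10 and 9.52 CPM in the uncured libraries. Both genes were called in untreated against cured mice (adjusted p = 0.000671 and 0.000209). Anti-PD1 library 5 had 0 counts of Mcpt1 and 1 of Mcpt2, against 85 to 375 and 233 to 589 counts in the other anti-PD1 libraries. At day 21, counts reached as low as 2 of Mcpt1 and 17 of Mcpt2 in untreated libraries and 0 of Mcpt1 and 3 of Mcpt2 in dual ICI libraries, and as high as 102 and 118 in untreated and 212 and 272 in dual ICI libraries. Mucosal protease genes of this cluster are close paralogs, so counts between them are uncertain.

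Connective tissue mast cell genes beyond the 9 were called in both directions. Of 16 listed genes, 14 were tested between untreated and cured mice, 3 were called higher and 5 lower, where 26.7% and 18.0% of all genes were, with a median log2 fold change of -0.51 against 0.05 for all genes. Mrgprb1, a receptor typical of connective tissue mast cells, had 3.53, 3.51 and 3.44 CPM in the cured libraries and 4.09, 1.83, 2.87, 2.03 and 3.08 CPM in the untreated ones (log2 -0.35 ± 0.28, adjusted p = 0.335). Slc18a2, the transporter that loads histamine into granules, gave a log2 fold change of -0.34 ± 0.22 (adjusted p = 0.235). The 3 that were higher in untreated mice were Rab27b, a granule trafficking gene (10.6-fold), Hs3st1, a heparan sulfate sulfotransferase (8.21-fold), and Tph1, which makes serotonin precursors (3.10-fold), with adjusted p-values of 0.000474, 0.000147 and 0.00775. All 3 are also known from epithelial or endocrine cells. Which cells gave the higher and the lower genes of this list was not tested. The 5 that were lower were Gata1, Maob, Adora3, Tpsg1 and Il1rl1. Gata1 was lower in untreated than in cured mice (log2 -1.72 ± 0.52, adjusted p = 0.0237), and Gata2 had 8.61 and 13.6 CPM (log2 -0.68 ± 0.25, adjusted p = 0.0501).

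**Figure D5:**
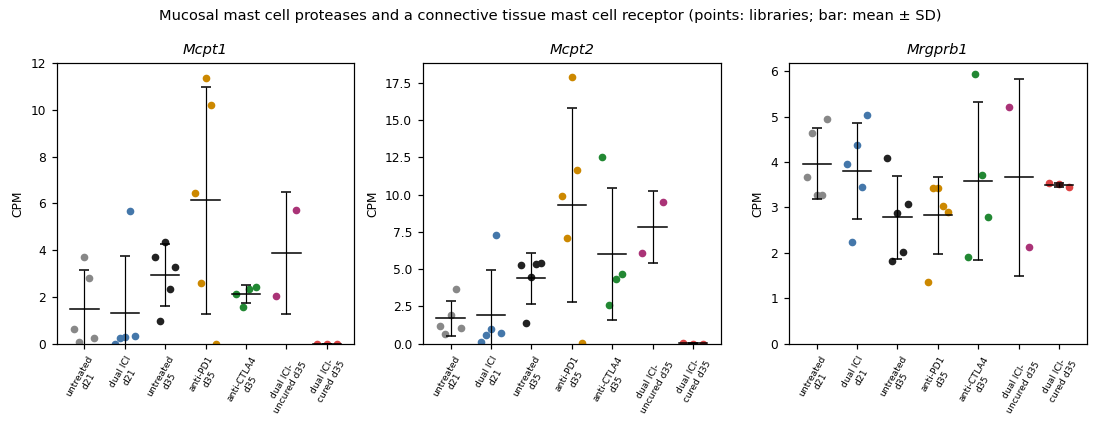
CPM of the mucosal mast cell proteases Mcpt1 and Mcpt2 and of the connective tissue mast cell receptor Mrgprb1 in every library (points), with group mean and SD (bars). Mcpt1 and Mcpt2 are at or near 0 in the 3 cured libraries and anti-PD1 library 5, where Mrgprb1 has 3.44 to 3.53 and 2.89 CPM, and in some libraries of day 21.

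The pathways around these genes were mixed. Of 13 genes of FcεRI signaling, 2 were higher and 1 lower in untreated than in cured mice, and 10 were higher and 1 lower in uncured than in cured mice, where 44.7% and 70.0% of all genes were called. Vav1, a guanine nucleotide exchange factor of blood cells, was 2.33-fold higher in untreated mice (adjusted p = 0.00885), and the kinase gene Fyn was lower (log2 -0.92 ± 0.14, adjusted p = 0.00099). Fcer1g, the γ chain that myeloid cells and NK cells share with mast cells, had 44.7 CPM in untreated and 28.9 CPM in cured mice (adjusted p = 0.0564). At day 21, 2 of the 13 genes were higher under dual ICI, where 0.574% of all genes were called. They were the adaptor genes Lat (2.78-fold, adjusted p = 0.0418) and Lat2 (1.78-fold, adjusted p = 0.0222). Of 7 T cell genes tested in the same comparison, 1 was called, Cd3g (3.53-fold higher, adjusted p = 0.0222). The median log2 fold change of the 7 was 1.20. Lat is also the adaptor of the T cell receptor, and the part of T cells in the Lat and Lat2 levels was not tested.

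Of 14 genes of KIT signaling, 3 were higher and 3 lower in untreated than in cured mice, with a median log2 fold change of -0.13. Mitf, a transcription factor that mast cells need, was lower (log2 -0.87 ± 0.19, adjusted p = 0.00663), and the phosphatase gene Ptpn6 was 1.98-fold higher (adjusted p = 0.0122). Of 6 genes of histamine handling, 5 were tested. Hnmt, which inactivates histamine inside cells, was lower in untreated mice (log2 -1.33 ± 0.35, adjusted p = 0.0127), and the receptor gene Hrh1 was 2.00-fold higher (adjusted p = 0.00434). The diamine oxidase gene Aoc1 was 109-fold higher (adjusted p = 0.000899), at 59.3 CPM in untreated and 0.546 CPM in cured mice. Of 7 lipid mediator genes, 4 were higher and 0 lower, among them the prostaglandin synthase genes Ptgs1 (3.48-fold, adjusted p = 0.00213) and Hpgds (2.59-fold, adjusted p = 0.0101). These sit among the 44.7% of all genes called in this comparison. In uncured against cured mice, 5 of the 7 lipid mediator genes were higher and 2 lower, where 70.0% of all genes were called. The lower genes were Alox5 (log2 -0.59 ± 0.14, adjusted p = 0.00541) and Ltc4s (log2 -1.13 ± 0.20, adjusted p = 0.00102).

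The genes whose levels were most alike to Cpa3 and to Kitl were sought among 14338 genes with a mean of at least 1 CPM, by Pearson r on group-centered log2 CPM over 29 libraries. Cma1 had rank 1 for Cpa3 and Mcpt4 rank 3. Outside the 9 genes, the 5 most alike to Cpa3 were Mrgprb1 (r = 0.82), Mrgprx2 (0.79), Matn2 (0.75), Cpq (0.75) and Cysltr1 (0.75), the first of these a mast cell receptor gene and the last a leukotriene receptor gene. The 5 most alike to Kitl were Lcorl (0.91), Fam135a (0.90), Atrx (0.90), Hace1 (0.89) and Zkscan8 (0.89). Their exon lengths were 7773 to 21757 bases, against a median of 4375 bases over the genes compared, and Kitl itself has 5911 bases. Ranked by r, Kitl was 1771st of 14337 genes for Cpa3.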

How the data were processed

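RNA was measured in 29 mouse libraries. The authors deposited raw counts per gene symbol, without normalization. Per the labels, reads were aligned to mm10 with STAR 2.7.0f and counted with featureCounts 1.6.4, whereas the paper's methods name other tools. The annotation and strand setting are not given in the sources used here. Overlapping genes are therefore uncertain, and none of the 9 genes overlaps an exon of another gene. Counts were fitted with edgeR 4.0.16 in R 4.3.3 (TMM, filterByExpr, quasi-likelihood test, two-sided, Benjamini-Hochberg adjustment over all genes tested, adjusted p under 0.05), with only the groups compared in each of 11 fits. DESeq2 1.42.0, other scalings and filters, a replicate block and leaving out each library were alternatives. Library totals of 25989217 to 31219650 counts put every count of the 9 genes at 6 or more. CPM use TMM-scaled totals, and log2 CPM a prior count of 2. Correlations used 100000 permutations within groups. The fits were tested on simulated data. A total of 23376 of 24421 symbols matched GENCODE vM21.

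The 9 genes and all lists were chosen with earlier results of these data known. Named besides the 9 are, per comparison, up to 4 called genes of a list with the largest change, the genes most alike to Cpa3 and Kitl, and single list genes chosen after their values were seen (Mrgprb1, Slc18a2, Mcpt8, Prss34, Tyr, Gata2, Fcer1g, Maob, Adora3, Tpsg1, Il1rl1). Replicate numbers did not pair the libraries. No 2 libraries of a group agreed within sampling noise.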

Additional observations from a re-analysis of the deposited data

Results flagged for a closer look

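In groups of 4 to 10 libraries, the lowest or highest library of each of the 9 genes was compared with its neighbors by Dixon's test. Over 45 combinations of gene and group, 4 libraries stood apart, where about 1 in 20 is expected by chance. Cpa3 at 6.42 CPM and Fcer1a at 0.569 CPM were lowest in untreated day 35 library 2, far below the other 4 libraries of that group. Ms4a2 at 0.361 CPM was lowest in anti-PD1 library 5. Tpsb2 at 10.9 CPM was lowest in dual ICI day 21 library 4, where Cpa3 was 22.7 CPM. The gastric epithelial list was low in the first 2 of these libraries, at 1648 and 183 CPM, and the part of that difference in the values was not tested.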

How the results depend on the processing

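Over 1494 refitted fold changes of the 9 genes, 1457 kept their side of the threshold. The sign changed in 124, of which 123 were not called and below their standard error in at least 1 of the fits, where no direction was read. In 1 the direction reversed: Tpsb2 in uncured against cured mice was -0.44 (adjusted p = 0.0439) without uncured library 1. That setting leaves 1 uncured library, assumed to vary like the cured ones, and called 8 of the 9 genes in place of 4, the range over left-out libraries being 4 to 8. Without uncured library 5 it was 0.67 (adjusted p = 0.00527). In anti-PD1 against cured mice, 2 genes were called, against 4 with DESeq2, 4 in a fit of all 29 libraries, and 0 to 5 over left-out libraries (5 without anti-PD1 library 5, 0 without any other). Over all genes that comparison called 2968, 5920 with DESeq2, and 0 to 10746 over left-out libraries. In untreated mice, day 35 against day 21 called 0 genes, 1 with DESeq2 and 0 to 4 over left-out libraries, with 4 without untreated day 35 library 2. Correlated pairs fell from 17 to 6 without anti-PD1 library 5 and untreated day 35 library 2, an alternative chosen after seeing the data. Over all genes, dual ICI against untreated mice at day 21 called 89, 502 with DESeq2 and 6 to 119 over left-out libraries. DESeq2 called 17 in uncured against untreated mice and 46 in all 5 dual ICI against untreated mice, where edgeR called 0. In untreated against cured mice the range over left-out libraries was 4491 to 9388 genes, and in untreated mice between days 654 to 4915 with 3168 by DESeq2, where edgeR called 7067 and 1687. Ms4a2, Hdc and Kit stayed called in untreated against cured mice in all 14 alternatives.

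Same-numbered libraries of 2 groups of a day did not deviate together (r -0.80 to 0.73, median -0.044, over 0.1 in 12 of 32 pairs), so the numbers were not taken as pairs. With a replicate block, 5 genes were called in anti-PD1 against cured mice in place of 2, 9913 genes in place of 2968 over the whole table, 4016 in place of 7067 in untreated against cured mice, and 209 in place of 89 at day 21. The block changed no other count of the 9 genes by over 1.5 times and could not be fitted for uncured against cured mice, which share no number.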
